A study of Mus musculus with 12 samples.

Results

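The insulin-like growth factor (IGF) system was followed in primary cultures of mouse cerebral cortex given triiodothyronine (T3), the active thyroid hormone. It is represented by 10 genes chosen from a list of ligand, receptor, adaptor and binding protein genes, and all 10 stood among the 14801 genes of the deposited table. These are Igf1, its receptor gene Igf1r, the related receptor genes Insr and Igf2r, the adaptor genes Irs1 and Irs2, and the binding protein genes Igfbp2, Igfbp3, Igfbp4 and Igfbp5. They were chosen with the difference between cultures with and without T3 already known, so for them that difference is described and not tested. Transcripts were read by RNA sequencing in 12 libraries, all titled wild type. The T3 group holds 6 cultures kept with 10 nM T3 for 24 h, and the no-T3 group holds 6 parallel cultures without it. Each of 6 fetuses of gestational day 17.5, called mouse 1 to 6, gave both a T3 and a no-T3 culture. The cells of both groups had grown for 9 days, in medium with B27, a supplement that contains insulin and T3. They then spent a day without B27 before the hormone was added. The cultures mix neurons and glia, so in these bulk libraries more cells of a type and more RNA per cell cannot be told apart.

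IGF1 and IGF2 are small secreted proteins related to insulin. IGF1 acts mainly through IGF1R, a receptor tyrosine kinase close to the insulin receptor, and both receptors pass the signal to IRS1 and IRS2 and from there to the PI3K, AKT and MTOR kinases. IGF2R binds IGF2 and carries it to lysosomes, and the IGFBPs are secreted proteins that hold IGFs outside the cell and set how much reaches the receptor. In the developing brain IGF1 is known for the growth and survival of neurons and oligodendrocytes.

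Igf1 is the member with the largest difference, and it was higher with T3 in each of the 6 mice. Igf1r was also higher in each mouse, by a smaller factor, and Igfbp5 was lower in each mouse. In a fit over all 13663 genes tested, these 3 of the 10 members passed an adjusted p of 0.05, 2 higher and 1 lower, while 5.52% of all genes passed. The choice of the members used this comparison, so nothing is read from that share. The calls of single members, here and in other fits of these libraries, are likewise a description and no support. All 10 members passed the filter on low values. Their median log2 change was -0.036, against 0.0031 over all genes tested. Values are CPM after TMM normalization, in which read counts are made comparable between libraries of different size and composition, and changes are T3 minus no T3 on the log2(CPM + 0.5) scale.

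Short stretches upstream of 3 members are shown because they hold AGGTCA, the core element that thyroid hormone receptors and other nuclear receptors bind. Each is written 5′ to 3′ on the strand of the gene, from RefSeq promoters of GRCm38.p6, with the element in capitals (TGACCT is the same element on the opposite strand).
Igf1: cagggaagagAGGTCAgctgcctaga
Igf1r: tgctcggcttTGACCTtcagcgagcc
Igf2r: gggccgactcAGGTCAcgtga
The Igf1 stretch lies at chr10:87860940-87860965 on the + strand, where its element begins 161 bases before the RefSeq start and inside an exon of other annotated Igf1 transcripts. The Igf1r stretch lies at chr7:67952161-67952186 on the + strand and the element 86 bases before the start. The Igf2r stretch lies at chr17:12769707-12769727 on the - strand and the element 11 bases before the start. Promoters were found for 9 of the 10 members, and these 3 held AGGTCA on either strand within 250 bases upstream. Of 32851 promoter windows of the same length, 14.0% did. The paired form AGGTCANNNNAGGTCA was in none of the members' windows and in 0.0152% of all windows.

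The upstream sequences of Igf1r and Igfbp5 are shown whole, up to the annotated start of RefSeq or GENCODE, because these genes passed in opposite directions. AGGTCA on either strand is in capitals, and Igfbp5 holds none.
Igf1r: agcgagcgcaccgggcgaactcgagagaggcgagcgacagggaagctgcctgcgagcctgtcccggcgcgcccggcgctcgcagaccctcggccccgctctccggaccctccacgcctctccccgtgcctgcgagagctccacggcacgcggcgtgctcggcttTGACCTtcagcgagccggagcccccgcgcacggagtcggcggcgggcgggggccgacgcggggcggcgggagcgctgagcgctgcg
Igfbp5: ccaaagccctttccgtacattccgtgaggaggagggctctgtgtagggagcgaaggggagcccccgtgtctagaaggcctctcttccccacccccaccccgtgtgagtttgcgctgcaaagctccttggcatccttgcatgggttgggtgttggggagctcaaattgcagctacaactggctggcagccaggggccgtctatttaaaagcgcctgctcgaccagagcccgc
These are chr7:67952007-67952256 on the + strand and chr1:72874885-72875115 on the - strand of GRCm38.p6. The 250 bases before the RefSeq start were 77.6% G and C with 42 CpG sites for Igf1r, 58.8% with 10 sites for Igfbp5 and 52.8% with 5 sites for Igf1. The median of all promoter windows was 52.4% and 6 sites, so the Igf1 window is close to the typical one and that of Igf1r is far richer in CpG. A match or its absence describes these letters and is no evidence of binding.

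Igf1 (ENSMUSG00000020053) lies on chromosome 10 from 87858265 to 87937042 of GRCm38. It ranged from 43.4 to 54.9 CPM with a median of 49.6 in the 6 T3 cultures, against 24.3 to 33.6 with a median of 27.2 in the 6 no-T3 cultures. The groups did not overlap, since the lowest T3 culture (mouse 3) lay above the highest no-T3 culture (mouse 5). Ranges failed to overlap in either direction for 1.68% of the genes tested, and with T3 the higher for 1.05%, and Igf1 was the only member of which this held. The change in a mouse ran from 0.65 in mouse 3 to 0.95 in mouse 2, which is 1.57-fold to 1.93-fold. The fitted change was 0.79 (SE 0.066), or 1.73-fold, and 47 of the genes tested, Igf1 included, rose with T3 by at least as much. Genes that fell with T3 are not in that count. T3 accounted for 88.1% of the spread of the log2 values over the 12 libraries and the mouse for 10.0%. The reads per library numbered 172 to 603, so counting error was small beside this difference. Without mouse 4 the change was 0.81, and over 14 other settings it stayed between 0.75 and 0.81. It was past the threshold in each, which describes how steady the value was and is no test of it.

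**Figure D1:**
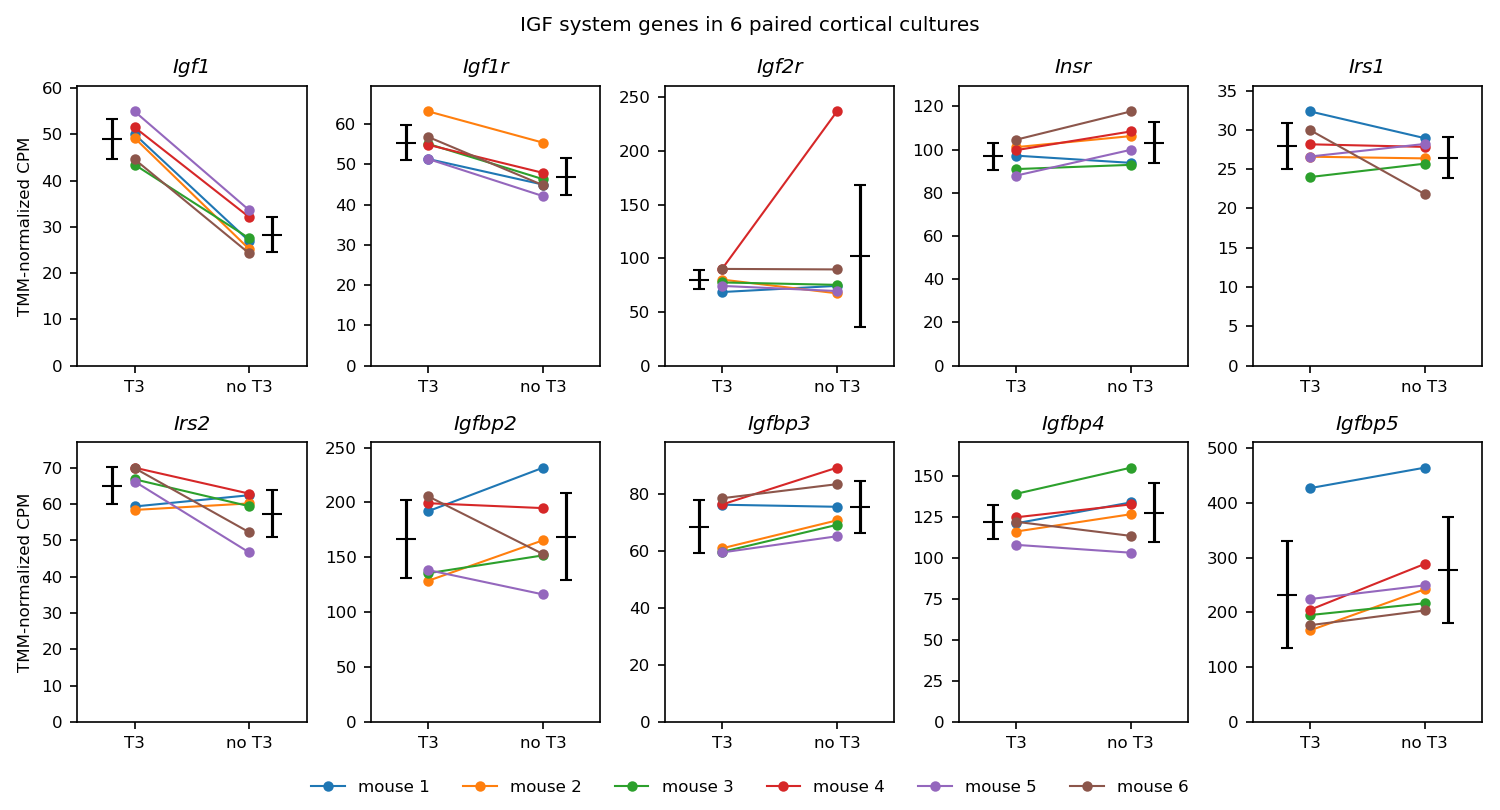
TMM-normalized CPM of the 10 genes in T3 cultures (left) and no-T3 cultures (right) of each panel. Lines join the cultures of a mouse, and the black bars give the mean ± SD over 6 cultures. The T3 cultures of Igf1 sit between 43.4 and 54.9, all above the no-T3 cultures, while Igfbp5 is set apart in mouse 1 at 427 with T3 and 464 without it.

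Of the 3 receptor genes only Igf1r passed. Igf1r (ENSMUSG00000005533), on chromosome 7 from 67952827 to 68233668, ranged from 51.3 to 63.1 CPM with a median of 54.9 in T3 cultures, against 42.1 to 55.4 with a median of 45.6 in no-T3 cultures. The groups overlapped because mouse 2 was the highest in both, yet every T3 culture was above its own no-T3 partner. The change in a mouse ran only from 0.19 to 0.34, and the fitted change was 0.24 (SE 0.058), a 1.18-fold rise. The mouse accounted for 43.5% of the spread and T3 for 53.5%. The call of Igf1r was lost without mouse 3, without mouse 6, with DESeq2 and without the mouse as a block.

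Insr (ENSMUSG00000005534), the gene of the insulin receptor on chromosome 8 from 3122061 to 3279617, did not pass. It ranged from 87.9 to 105 CPM with a median of 98.4 in T3 cultures, against 92.9 to 118 with a median of 103 in no-T3 cultures. It was lower with T3 in 5 of 6 mice, with a fitted change of -0.087 (SE 0.053). The ratio of Igf1r to Insr, both per kilobase of exon, was 0.469 ± 0.031 in T3 cultures and 0.374 ± 0.043 in no-T3 cultures (SD, n = 6 each). It ran from 0.432 to 0.511 with T3 and from 0.312 to 0.427 without it, a description only, because the choice of members used the change of Igf1r. Insr reads per length stayed above those of Igf1r in all 12 libraries.

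Igf2r (ENSMUSG00000023830), on chromosome 17 from 12682406 to 12769664, did not pass and was set apart in a single library. It ranged from 68.6 to 90.4 CPM with a median of 78.8 in T3 cultures, against 67.4 to 237 with a median of 74.8 in no-T3 cultures. The value of 237 was the no-T3 culture of mouse 4, and the next highest no-T3 culture had 89.6. The fitted change was -0.18 (SE 0.24) with mouse 4 and 0.056 (SE 0.065) without it, so its sign rests on that mouse. The no-T3 library of mouse 4 also held transcripts of heart muscle, where 3 listed markers (Myh6, Myh7 and Ttn) summed to 1213 CPM against at most 6.88 in the other 11 libraries. Markers of mural cells and fibroblasts summed to 509 CPM in it, against at most 224 elsewhere. The part of these transcripts in the Igf2r value was not tested.

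**Figure D2:**
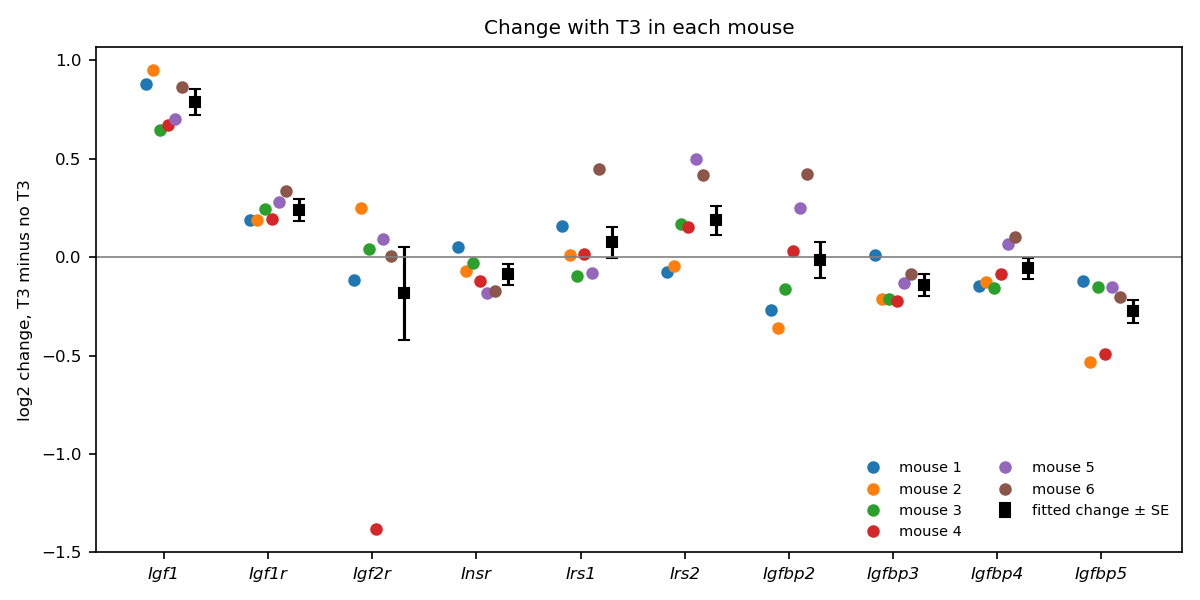
Log2 change (T3 minus no T3) of each gene in each of 6 mice (coloured points) with the fitted change and its standard error (black squares). All 6 points of Igf1 and Igf1r lie above 0 and all 6 of Igfbp5 below it, and Igf2r in mouse 4 stands at -1.38.

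Neither adaptor gene passed, although Irs2 came closer. Irs2 (ENSMUSG00000038894), on chromosome 8 from 10984681 to 11008458, ranged from 58.4 to 70.1 CPM with a median of 66.6 in T3 cultures, against 46.7 to 62.9 with a median of 59.8 in no-T3 cultures. It was higher with T3 in 4 of 6 mice, by up to 0.50 in mouse 5, and lower in mouse 1 and mouse 2, with a fitted change of 0.19 (SE 0.072). It passed only when mouse 1 was left out, with a change of 0.24. Irs1 (ENSMUSG00000055980), on chromosome 1 from 82233101 to 82291416, ranged from 24.0 to 32.3 CPM with a median of 27.4 in T3 cultures, against 21.8 to 28.9 with a median of 27.1 in no-T3 cultures. Its fitted change of 0.076 (SE 0.079) came largely from mouse 6, where the change was 0.45, and without mouse 6 it was 0.0013. An annotated gene on the opposite strand shares 30.9% of the Irs1 exons, and its reads could not be separated because the library kit does not mark strand.

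Among the binding protein genes only Igfbp5 passed. Igfbp5 (ENSMUSG00000026185), on chromosome 1 from 72857932 to 72874884, encodes a binding protein that is also held in the extracellular matrix. It ranged from 167 to 427 CPM with a median of 199.9 in T3 cultures, against 203 to 464 with a median of 246 in no-T3 cultures. The groups overlapped widely, and mouse 1 had by far the highest value in both. They overlapped without mouse 1 too, since mouse 5 stood at 224 with T3 and mouse 6 at 203 without it. Within a mouse it was lower with T3 in 6 of 6 mice, by -0.12 in mouse 1 to -0.53 in mouse 2, and the fitted change was -0.28 (SE 0.059), 0.826-fold. A change in the same direction in 6 of 6 mice was seen for 3 members and for 10.8% of the genes tested. The mouse accounted for 86.6% of the spread of Igfbp5 and T3 for 9.67%, and the call did not hold in the fit without the block.

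The cultures of mouse 1 also stood highest in several marker lists, and the part of this in the level of Igfbp5 was not tested. Markers of astrocytes (8 genes) summed to 3426 CPM in the T3 culture of mouse 1 and 2901 in its no-T3 culture, against at most 2593 with T3 and 2329 without it in the other mice. Markers of neural progenitors (5 genes) summed to 793 and 758 CPM in those cultures, against at most 579.97 with T3 and 704 without it in the other mice. Most of these sums in mouse 1 was Vim alone, at 492 CPM with T3 and 497 without it. Pax6 was also highest in mouse 1 in both groups, and Sox2 only with T3. Nes and Hes5 were highest in other mice in both groups, so the list as a whole did not set mouse 1 apart. Within the astrocyte list, mouse 5 was highest for Aldh1l1 and Aldoc with T3 and for Slc1a2 without it. Markers of choroid plexus (3 genes) summed to 297 CPM with T3 and 386 without it in mouse 1, against at most 196 and 171 in the other mice. Those of endothelium (3 genes) summed to 30.7 CPM with T3 in mouse 1, against at most 11.6 in the others, but without T3 mouse 4 was higher. Markers of mural cells and fibroblasts (8 genes) summed to 61.2 to 224 CPM in T3 cultures and 109 to 509 CPM in no-T3 cultures. Their sum was lower with T3 in 5 of 6 mice, though in mouse 1 it hardly differed, at 224.2 with T3 and 224.4 without it. The listed genes did not move together. Dcn was lower with T3 in each mouse, while Pdgfrb was higher in each mouse but mouse 4. The part of this sum in the change of Igfbp5 was not tested.

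Igfbp2 (ENSMUSG00000039323), the most abundant of the 10 per length and a binding protein of radial glia and astrocytes in the brain, differed between mice without a common direction. It ranged from 129 to 205 CPM with a median of 165 in T3 cultures, against 116 to 232 with a median of 159 in no-T3 cultures. It was lower with T3 in mice 1, 2 and 3 and higher in mice 4, 5 and 6, from -0.36 in mouse 2 to 0.42 in mouse 6, with a fitted change of -0.014 (SE 0.093). The gene lies on chromosome 1 from 72824503 to 72852474, and 5457 bases separate it from Igfbp5, which is read towards it from the other strand. The pair thus did not move together, since Igfbp5 was lower with T3 also in the 3 mice in which Igfbp2 was higher.

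Igfbp3 and Igfbp4 did not pass. Igfbp3 (ENSMUSG00000020427), on chromosome 11 from 7206086 to 7213923 and the main carrier of IGFs in blood, ranged from 59.5 to 78.5 CPM with a median of 68.6 in T3 cultures, against 65.2 to 89.2 with a median of 73.1 in no-T3 cultures. It was lower with T3 in 5 of 6 mice (change -0.14, SE 0.056). Igfbp4 (ENSMUSG00000017493), which mostly restrains IGF action and lies on chromosome 11 from 99041244 to 99054392, ranged from 108 to 139 CPM with a median of 122 in T3 cultures, against 103 to 155 with a median of 129.9 in no-T3 cultures. Its change was -0.057 (SE 0.053), below 0 in 4 of 6 mice. Summed over Igfbp2 to Igfbp5, the binding protein genes took 589.5 ± 120.4 CPM in T3 cultures and 649 ± 139 CPM in no-T3 cultures (SD, n = 6 each), and the ranges of 473 to 816 and 534 to 905 overlapped.

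Per kilobase of exon, the binding protein genes stood at the top of the 10 and Igf1 and Igf1r near the bottom. Igfbp2 averaged 90.2 ± 19.4 CPM per kilobase in T3 cultures and 91.4 ± 21.6 in no-T3 cultures (SD, n = 6 each), above 97.3% of all genes in no-T3 cultures. Igfbp5 averaged 38.7 ± 16.2 in T3 cultures and 46.2 ± 16.0 in no-T3 cultures, and Igfbp4 and Igfbp3 followed at 28.9 ± 4.08 and 24.1 ± 2.93 without T3. Igf2r, Irs2 and Insr lay between 7.50 and 11.0 without T3, above the median gene at 5.78. The highest of these means, that of Igf2r, includes the culture of mouse 4 that was set apart. Irs1, Igf1 and Igf1r lay together at 2.90, 2.85 and 2.79 without T3, below that median. With T3, Igf1 stood at 4.94 ± 0.435, above Igf1r at 3.30 ± 0.261 and Irs1 at 3.06 ± 0.320.

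Neighbours in the order without T3 were compared within the 6 no-T3 cultures by an exact two-sided sign-flip permutation test over mice, whose smallest possible p is 0.03125. Igfbp2 over Igfbp5, Igfbp5 over Igfbp4, Igfbp3 over Igf2r and Insr over Irs1 held in 6 of 6 cultures and reached that smallest p in the exact test. With 9 pairs adjusted together their adjusted p was 0.0703. That value was set by the smallest possible p and by how many of the pairs reached it. The adjustment therefore does not separate these 4 pairs from the others. Irs1 against Igf1 and Igf1 against Igf1r differed by 0.03 on the log2 scale, less than their SDs of 0.15 and 0.27, and Igf2r against Irs2 by 0.11 with an SD of 0.65. The order also rests on the length used. With the longest transcript in place of all exons, Irs2 was above Insr in 0 of 6 cultures in place of 5, and Irs1 above Igf1 in 0 of 6 in place of 3. Igfbp5 was then above Igfbp4 in 5 of 6 cultures in place of 6. Igfbp4 was above Igfbp3 in 4 in place of 5, and Igf1 above Igf1r in 2 in place of 4.

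**Figure D3:**
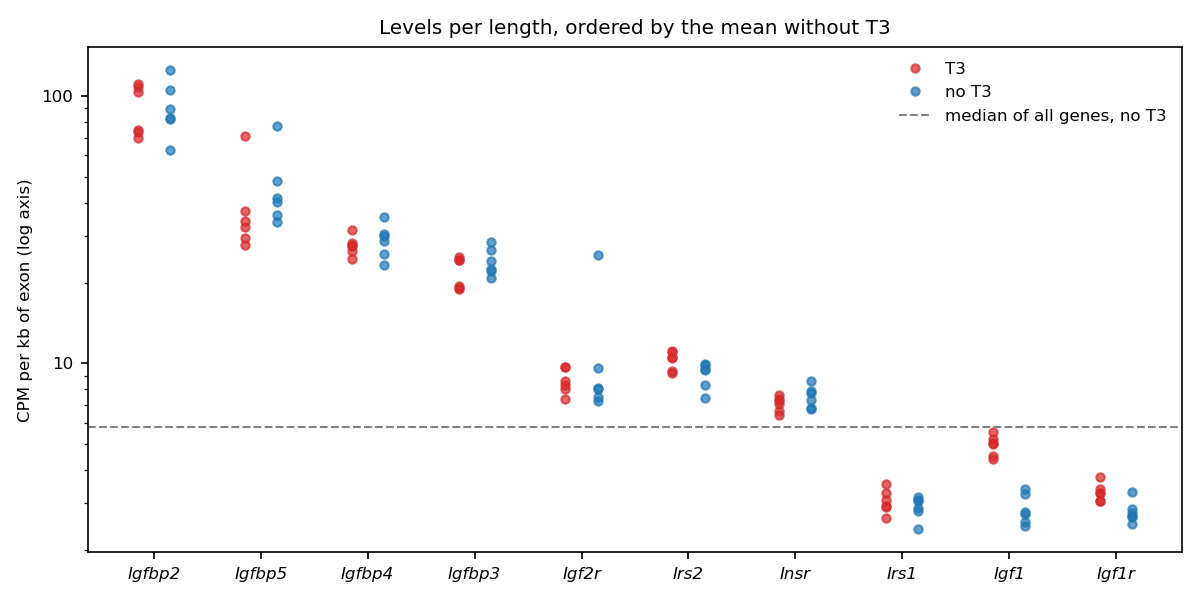
CPM per kilobase of exon (log axis) of the 10 genes in 6 T3 cultures (red) and 6 no-T3 cultures (blue), ordered by the mean without T3, with the median of all genes without T3 as a dashed line. Igfbp2 lies highest, and Igf1 without T3 sits level with Irs1 and Igf1r while its T3 cultures stand above both.

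The genes whose values over the 12 libraries followed Igf1 most closely were Cldn12, Hlf, Hccs, Sox8 and Nrarp. Likeness was the root mean square distance between log2 values, each gene centred on its own mean, over 12175 genes. Cldn12, a claudin gene, was nearest at 0.17, with 75.7 ± 14.0 CPM in T3 cultures and 43.2 ± 4.74 in no-T3 cultures (SD, n = 6 each). The clock-related transcription factor gene Hlf was at 0.17, Hccs, which attaches heme to cytochrome c, at 0.18, and the glial transcription factor gene Sox8 and the Notch feedback gene Nrarp at 0.18 and 0.19. The median gene was at 0.45. Of the other members Igf1r was nearest, at 0.35 and rank 488, and Igfbp5 farthest, at 0.67 and rank 11743. T3 accounted for 88.1% of the spread of Igf1, so a small distance largely reflects a similar change with T3. The fitted changes of the 5 nearest genes ran from 0.60 to 0.84. The T3 change was already known when the members were chosen, so the distances are a description and carry no test.

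Few of the other genes of the pathway passed. Of 75 listed genes that act with IGFs and insulin, 69 were in the table and 66 were tested, and 3 of these passed, 2 higher and 1 lower. That is close to the 5.52% of all genes (3.37% higher and 2.14% lower), and the list's median change of 0.0030 equals that of all genes to the second decimal. Deptor, which encodes an inhibitory partner of the MTOR kinase, rose to 38.1 ± 5.72 CPM in T3 cultures, against 24.5 ± 3.15 in no-T3 cultures (SD, n = 6 each). Its values ran from 31.4 to 46.6 with T3 and from 21.4 to 28.6 without it, so the groups did not overlap. It was higher in 6 of 6 mice by 0.54 to 0.76 (fitted change 0.62, SE 0.067, adjusted p = 4.56e-06). Deptor (ENSMUSG00000022419) lies on chromosome 15 from 55112317 to 55259271, and it passed in each of 14 other settings with changes of 0.59 to 0.64.

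Socs2, which encodes a feedback inhibitor of growth hormone signalling that also binds the IGF1 receptor, fell to 33.6 ± 2.39 CPM in T3 cultures, against 45.8 ± 6.97 in no-T3 cultures (SD, n = 6 each). It ranged from 29.0 to 35.4 with T3 and from 39.3 to 55.9 without it, again with no overlap. The change was below 0 in 6 of 6 mice, from -0.15 to -0.73 (fitted change -0.43, SE 0.078, adjusted p = 0.00152). Socs2 (ENSMUSG00000020027) lies on chromosome 10 from 95385362 to 95417180. It passed in each of 14 other settings with changes of -0.48 to -0.37.

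Htra1, a secreted protease known to cut binding proteins of the IGFs, rose to 26.0 ± 8.76 CPM in T3 cultures, against 19.7 ± 8.50 in no-T3 cultures (SD, n = 6 each). It was higher in 6 of 6 mice (fitted change 0.44, SE 0.086, adjusted p = 0.00286), but the groups overlapped, from 17.7 to 39.6 with T3 and from 9.63 to 32.7 without it. That call did not hold in the fit without the block (adjusted p = 0.707). The summed astrocyte markers ran from 1308 to 3426 CPM in T3 cultures and from 860 to 2901 CPM in no-T3 cultures and were higher with T3 in 6 of 6 mice. Both this sum and Htra1 were highest in mouse 1, next in mouse 5 and lowest in mouse 6, in T3 and in no-T3 cultures, and the part of astrocyte RNA in the Htra1 change was not tested. The gene (ENSMUSG00000006205) lies on chromosome 7 from 130936111 to 130985660. Htra1 was the single gene to pass among 6 tested genes for other binding proteins, their proteases and the stanniocalcin inhibitors of those proteases. Of all genes tested 5.52% passed, so nothing is read from 1 gene in a list of 6. Their changes ran from 0.069 to 0.47 with a median of 0.35, against 0.0031 over all genes tested. That median is a description of few genes, some with low counts, and no common rise is read from it. Igfbp7, for example, had 7 to 27 reads per library. Pappa, the protease that releases IGFs from IGFBP4, had 10 to 46 reads per library. It stood at 3.67 ± 0.609 CPM in T3 cultures and 2.53 ± 0.592 in no-T3 cultures (SD, n = 6 each, change 0.47, adjusted p = 0.108).

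The signal chain below the receptors held no other gene that passed. None of 18 genes of PI3K, AKT and FOXO passed, and their changes ran from -0.14 to 0.14. None of 8 genes of RAS and MAP kinases passed, with changes from -0.073 to 0.14. Of 12 genes around MTOR only Deptor passed, and of 15 adaptors and negative regulators only Socs2. Of all genes tested 5.52% passed, a share at which lists this short hold few such genes or none. Nothing is therefore read from these counts. Ghr, the growth hormone receptor gene, had 6.00 ± 1.62 CPM in T3 cultures and 7.80 ± 2.33 in no-T3 cultures (SD, n = 6 each), with a change of -0.34 (adjusted p = 0.217). Its highest no-T3 value, 12.1 CPM, was that of mouse 4. Without mouse 4 the fitted change of Ghr was -0.17 (SE 0.13, adjusted p = 0.577). Igfbp7, a related binding protein gene, had 2.14 ± 0.395 CPM in T3 cultures and 1.56 ± 0.614 in no-T3 cultures (SD, n = 6 each, change 0.39, adjusted p = 0.28). Igfbp6 was listed too but was not found by its symbol in the deposited table.

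**Figure D4:**
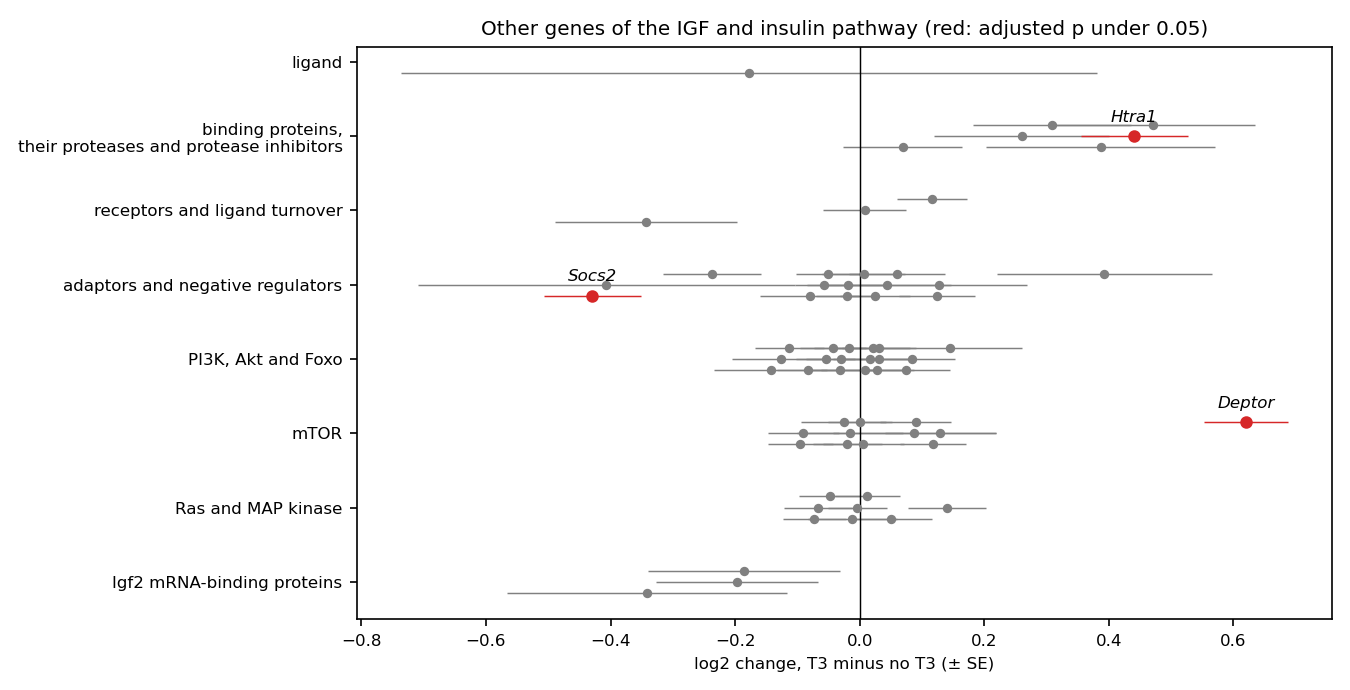
Fitted log2 change (T3 minus no T3) with its standard error for 66 other genes of the IGF and insulin pathway, grouped by role. Red points passed an adjusted p of 0.05, which are Deptor and Htra1 above 0 and Socs2 below it, while the 18 genes of PI3K, AKT and FOXO all lie between -0.14 and 0.14.

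Igf2, the second IGF ligand, varied more between mice than any change with T3. It ranged from 3.19 to 56.9 CPM with a median of 37.8 in T3 cultures, against 2.26 to 348 with a median of 32.3 in no-T3 cultures. Both cultures of mouse 3 were lowest, and the no-T3 culture of mouse 4 was highest. The change was -0.18 (SE 0.56, adjusted p = 0.921) over 6 mice and 0.37 (SE 0.12, adjusted p = 0.0965) without mouse 4. Another annotated gene on the same strand shares 62.8% of the Igf2 exons, so the reads may not be those of Igf2 alone.

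In the no-T3 library of mouse 4, 4 of the 79 IGF and insulin genes in the table were more than 2 times as high as in any of the remaining 11 libraries, counted on CPM + 0.5. They were Igf2r, Igf2, the adaptor gene Grb10 and Igf2bp1, whose product binds Igf2 mRNA, and none of these 79 genes stood out in this way in another library. Over all 14801 listed genes 130 did so in that library and at most 2 in any other. Grb10 stood at 215 CPM there, against at most 69.0 in the other libraries, and Igf2bp1 at 7.98 against at most 2.57. Igf2, Igf2r and Grb10 are known as imprinted genes in the mouse, each expressed mainly from the copy of a single parent in many tissues.

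**Figure D5:**
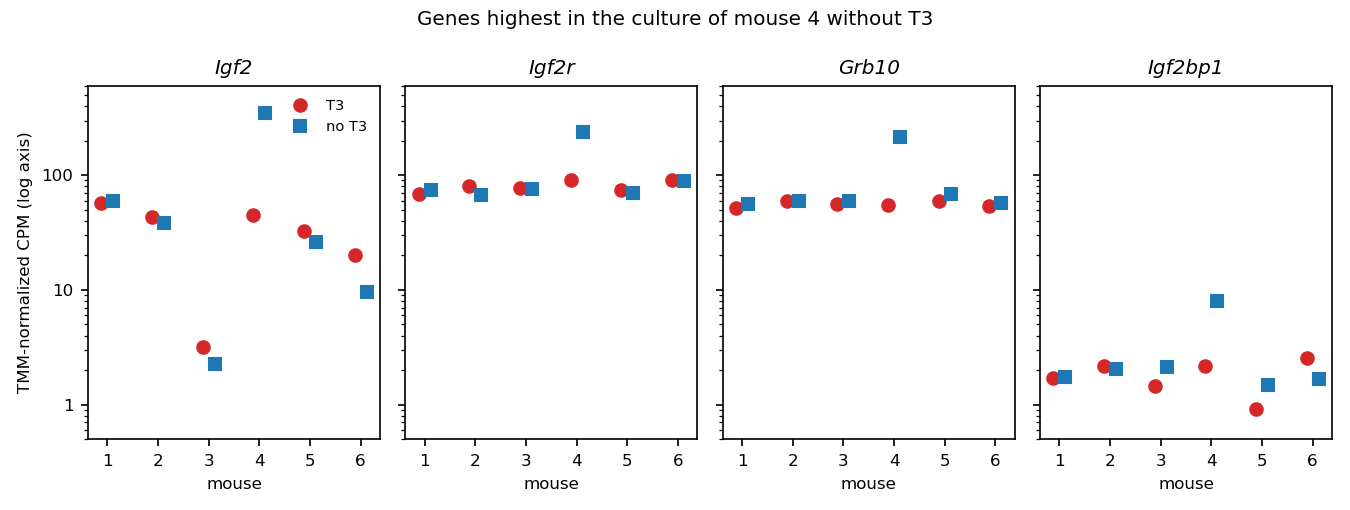
TMM-normalized CPM (log axis) of Igf2, Igf2r, Grb10 and Igf2bp1 by mouse in T3 cultures (red circles) and no-T3 cultures (blue squares). The no-T3 culture of mouse 4 is the highest point of each panel, at 348, 237, 215 and 7.98, and both cultures of mouse 3 are the lowest for Igf2.

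The labels and the libraries were checked with genes that are no members. Hr and Klf9, known T3 targets, were higher with T3 in 6 of 6 mice, with 46.5 ± 2.92 CPM in T3 cultures and 5.49 ± 1.23 in no-T3 cultures for Hr (SD, n = 6 each). Libraries held 7460586 to 10837895 reads in T3 cultures and 5272092 to 8136928 in no-T3 cultures, and the T3 library was the deeper in 6 of 6 mice, by 1.03 to 1.67 times. A count of 0 allows at most 0.273 to 0.557 CPM by counting error alone, far below every value of the members. Of 9 microglial markers, a cell type known to make IGF1, 5 were in the table, of which only 1 was expressed enough to be tested and did not pass, and the 5 summed to 4.28 to 8.70 CPM in T3 cultures and 3.08 to 10.2 in no-T3 cultures, with no single value above 2.78. Astrocyte markers passed as higher with T3 for 5 of 8 genes and markers of oligodendrocyte precursors for 3 of 6. Both sums were higher in 6 of 6 mice, by 1.07 to 1.52 times and 1.13 to 1.35 times. Of 8 markers of mural cells and fibroblasts 1 passed as lower. Of 6 excitatory neuron markers 2 passed as lower. Of 6 inhibitory neuron markers 1 passed as higher and 1 as lower, and of 5 pan-neuronal markers 1 passed as higher. These counts hold only genes that passed, beside 5.52% of all genes tested, and do not give the direction of the other markers. The sums were lower with T3 in 5 of 6 mice for mural cells and fibroblasts and for pan-neuronal markers. They were lower in 4 of 6 for excitatory and in 3 of 6 for inhibitory neuron markers. The part of these shifts in the changes of Igf1 and the other genes that passed was not tested.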

How the data were processed

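RNA of 12 libraries was sequenced, 6 with and 6 without T3. Per the submitters' processing notes the authors used TopHat, Bowtie, HTSeq, CASAVA, FastQC and edgeR with the build GRCm38; no versions are named there. The deposited signal is counts per gene scaled by TMM, per the file headers. The columns sum to 969044 to 1044783, and 100% of values were whole multiples of 1 read (tolerance 0.01 reads), which gave back the reads. The table lists genes at 1 CPM or more in at least 2 libraries.

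Values of log2(CPM + 0.5) were tested with limma 3.58.1 (R 4.3.3), using a mean-variance trend, a robust fit and a block for each mouse, after the filterByExpr rule of edgeR 4.0.16, with Benjamini-Hochberg adjustment over 13663 genes. DESeq2 1.42.0, edgeR and limma-voom on recovered reads were alternatives. The series' design says that a fetus supplied both cultures. Deviations from group means correlated at 0.237 to 0.638 within mice and at a median of -0.11, and at most 0.348, between mice. Members, lists and named genes were chosen with earlier results of these data known. The rule names all members, pathway genes that passed, Igf2, Igfbp6, Igfbp7 and Ghr, and the 5 genes nearest Igf1. Pappa, Grb10 and Igf2bp1 were named after their values were seen. Lengths, coordinates and overlaps come from GENCODE M21 on GRCm38. The test was tried on simulated data. P-values measure the spread between these cultures.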

Additional observations from a re-analysis of the deposited data

Results flagged for a closer look

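A culture was set apart when its gap to the nearest other culture of its group was large for the range of the group (Dixon's test), and 6 of 32 groups of 6 cultures were flagged, where chance alone flags about 5% of groups. Igf2r stood at 237 CPM and Igf2 at 348 CPM in the no-T3 culture of mouse 4, against next values of 89.6 and 59.1. Igfbp5 stood at 427 CPM in the T3 culture and at 464 CPM in the no-T3 culture of mouse 1, against next values of 224 and 288. In the T3 culture of mouse 1 Socs2 was lowest at 29.0 CPM (next 33.5) and Ghr highest at 9.22 CPM (next 5.65).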

How the results depend on the processing

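Without the replicate block, which drops the pairing of cultures by mouse, 178 genes passed in place of 754, and 1 member, Igf1, passed in place of 3. Leaving out 1 mouse gave 459 to 854 genes and 2 to 4 members. The number of members above 0 was the same within 1.5 times in every setting run, and Deptor, Socs2 and Igf1 passed in all 14. Leaving out 1 mouse gave changes of -0.10 to 0.055 for Igfbp2, above 0 without mouse 1, 2 or 3, -0.27 to 0.056 for Igf2r and -0.42 to 0.37 for Igf2, both above 0 without mouse 4. In the order per length 6 of 10 members kept their place with the longest transcript as length, and 6 to 10 when a mouse was left out. The cause was not tested. The 5 nearest genes to Igf1 shared 5 with a pseudocount of 1. Depth limits Igfbp7, Pappa and Igf2bp1, which had few reads.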

Other observations

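Igf2 and the markers of choroid plexus, a tissue that secretes IGF2, were low and high in the same mice. Of 4 choroid plexus markers 3 were in the table (Ttr, Folr1 and Clic6), and none passed. In T3 cultures they summed to 297, 182, 2.52, 196, 175 and 47.0 CPM in mouse 1 to 6, beside Igf2 values of 56.9, 42.8, 3.19, 45.2, 32.8 and 20.1 CPM. In no-T3 cultures they summed to 386, 171, 1.69, 148, 125 and 13.9 CPM, beside Igf2 values of 59.1, 38.4, 2.26, 348, 26.2 and 9.63 CPM. Mouse 3 was lowest and mouse 6 second lowest in both measures and in both groups. The no-T3 culture of mouse 4 was the exception at the top, with a marker sum in the range of mice 2 and 5 and the highest Igf2 value. This likeness was seen after the values were known and carries no test.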
